A study of Mus musculus with 2 samples.

Results

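The genes described here are those of the cytosolic ribosomal proteins in leukocytes of the mouse heart. They were taken by symbol, as every gene named Rpl, Rps or Rplp followed by a digit, together with Rpsa, without pseudogene symbols and without the Rps6k kinases. This gave 86 of 32286 features: 49 large subunit genes, 33 small subunit genes, the 3 genes of the P stalk and Rps19bp1, which the pattern takes in although its product binds a ribosomal protein and is not one. The study used mice that had received a bone marrow transplant (BMT) and then transverse aortic constriction (TAC), in which a tied aorta raises the pressure load on the heart. The marrow was Control in one group and LOY, with loss of the Y chromosome, in the other, and the surgery was common to both. How the Y chromosome was lost, and the strain and age of the mice, are not stated in the labels. Viable CD45+ RFP+ cells, which by the labels are immune cells of the transplanted marrow, were sorted from enzyme-digested left ventricles, and 3 mice per condition were pooled after the sort into 1 library. With 1 library per group there was no replicate check and no test was run. All intervals given are exact 95% intervals that cover counting error only, and paired values give the control library first and the LOY library next.

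Each ribosome carries a single copy of nearly every ribosomal protein, arranged with ribosomal RNA in a small subunit, which reads the message, and a large subunit, which joins the amino acids. Messages for these proteins begin with a terminal oligopyrimidine (TOP) stretch, through which the kinase mTOR and the binding protein Larp1 set their translation. They are among the most abundant messages of a leukocyte, and lymphocytes are known for a high share of them and mature neutrophils for a low one.

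After filtering, 6909 control and 5177 LOY cells remained, with 41329445 and 17442593 unique molecular identifiers (UMIs, each a counted transcript) and medians of 5214 and 3006 UMIs per cell. The libraries shared 31 cell barcodes. The leukocyte gene Ptprc stood at 549.5 and 531 CPM (UMIs per 1000000 UMIs of the cells summed), and 4 Y-linked genes together at 124 and 14.3 CPM. Mitochondrial genes held 3.42% and 2.05% of UMIs. Of 6 erythroid markers, 6 were detected in the control (together 234 CPM) and 4 in the LOY library (2.69 CPM, with Slc4a1 among those at 0), and their part in the differences below was not tested. Cells were clustered without the ribosomal genes and named from marker genes as macrophage-like, monocyte-like and so on. A pair of myeloid clusters stayed numbered because their top genes held more markers of another type: cluster 0, led by Retnla, Mmp12 and Ear2, and cluster 5, led by Lyve1, Fcna and F13a1. Cluster 3, led by Fabp4 and Ly6c1, stayed numbered for the same reason and was too small to be given (12 control and 3 LOY cells).

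The start regions of the genes are shown first, because they carry the features that ribosomal protein genes are known to share. RefSeq promoter entries (build GRCm38.p6, 250 bases before to 50 bases after the annotated start) were matched by symbol for 66 of 86 members. The motif CGGAAG, the core recognised by ETS factors, stood on either strand of 44 of these promoters (66.7%), against 17.2% of all 27025 promoters. The 44 held promoters of members with the lowest ratios between the libraries, Rpl10 and Rpl35, as well as with the highest. The motif is in capitals in the 60 bases before to 10 bases after the start of Rps15 (chr10:80292371-80292440 on the plus strand) and Rpl41 (chr10:128549159-128549228 on the minus strand), which had the highest ratios between the libraries:
Rps15: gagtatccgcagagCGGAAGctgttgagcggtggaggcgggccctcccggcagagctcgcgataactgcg
Rpl41: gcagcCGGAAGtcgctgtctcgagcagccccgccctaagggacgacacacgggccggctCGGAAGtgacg

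A run of at least 8 bases that were all C or T lay within 20 bases of the annotated start, on the sense strand, in 28 of the 66 members (42.4%) and in 15.9% of all promoters. The longest such run had a median of 7 bases in the members and 5 in all promoters. The motif ATGGCGG was found on either strand in 10 members (15.2% against 4.19%), and TATAAA on the sense strand in 6 (9.09% against 8.88%). The 40 bases centred on the start, with such runs in capitals, are given for Rpl10 (chrX:74270796-74270835 on the plus strand) and Rpl35 (chr2:39005112-39005151 on the minus strand), the members with the lowest ratios between the libraries, and for Rps9 (chr7:3704021-3704060 on the plus strand) and Rpl12 (chr2:32961692-32961731 on the plus strand), which set neutrophils apart. Runs were in Rpl35 and Rps9 and not in this window of Rpl10 and Rpl12, and annotated starts can lie some bases from the starts used in these cells:
Rpl10: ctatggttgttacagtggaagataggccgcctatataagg
Rpl35: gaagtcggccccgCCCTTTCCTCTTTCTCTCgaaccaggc
Rps9: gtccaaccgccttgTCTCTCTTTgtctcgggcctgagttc
Rpl12: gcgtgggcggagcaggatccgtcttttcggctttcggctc

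Together the 86 genes held 15.0% of all control UMIs (6190349) and 16.8% of all LOY UMIs (2927325). Of them, 83 reached 10 CPM in at least 1 library and 60 reached 1000 CPM in both. Among those with most UMIs were Rpl13, Rps9, Rps24 and Rplp1. Rpl13, of the large subunit, had 4263 and 3666 CPM over all cells, and Rps24, of the small subunit, 3609 and 3427 CPM. At the other end stood paralogues with known tissue-restricted expression. Rpl10l, a testis paralogue of Rpl10, had 0 UMIs in both libraries, which allows up to 0.0726 and 0.172 CPM. Rpl3l, the striated muscle paralogue of Rpl3, stood at 0.919 and 1.15 CPM, and Rpl39l at 0.387 and 0.459 CPM.

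Lymphocytes devoted the largest share of their transcripts to ribosomal proteins and neutrophils the smallest, in both libraries. T cell-like cells had 30.7% and 34.1% of their UMIs in these genes (276 and 98 cells), B cell-like cells 28.4% and 35.6% (817 and 236 cells) and NK cell-like cells 23.7% and 29.5% (193 and 48 cells). Conventional dendritic cell-like cells followed with 21.8% and 23.8%. The monocytic classes lay lower, with 17.2% and 18.7% in nonclassical monocyte-like and 16.8% and 17.8% in monocyte-like cells, and cluster 0 had 16.4% and 22.4%. Macrophage-like cells, the most numerous class with 3423 and 3425 cells, had 13.5% and 16.1%, and cluster 5 had 11.9% and 12.8%. Neutrophil-like cells (297 and 125) had 5.27% and 6.65%. T cell-like cells were above B cell-like cells in the control library and below them in the LOY library, whereas the order of the other named classes was the same in both. The order of T cell-like and B cell-like cells turned under alternatives: B cell-like cells were higher in the control library with at most 5% mitochondrial UMIs, and T cell-like cells were higher in the LOY library with doublets kept or with cells thinned to 1000 UMIs. With each library clustered on its own, monocyte-like cells were above nonclassical monocyte-like cells in the control library and below them in the LOY library. The interval of each share was narrow, for example 6.52% to 6.79% in the LOY neutrophil-like cells, the class with fewest UMIs of the 6 compared below. Median UMIs per cell were 3893 and 1672.5 in T cell-like, 2053 and 859 in B cell-like, 5503 and 3193 in macrophage-like and 2038 and 830 in neutrophil-like cells. B cell-like and neutrophil-like cells were of like median depth and near opposite ends of the order, and the part of depth in the order was not tested.

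**Figure D1:**
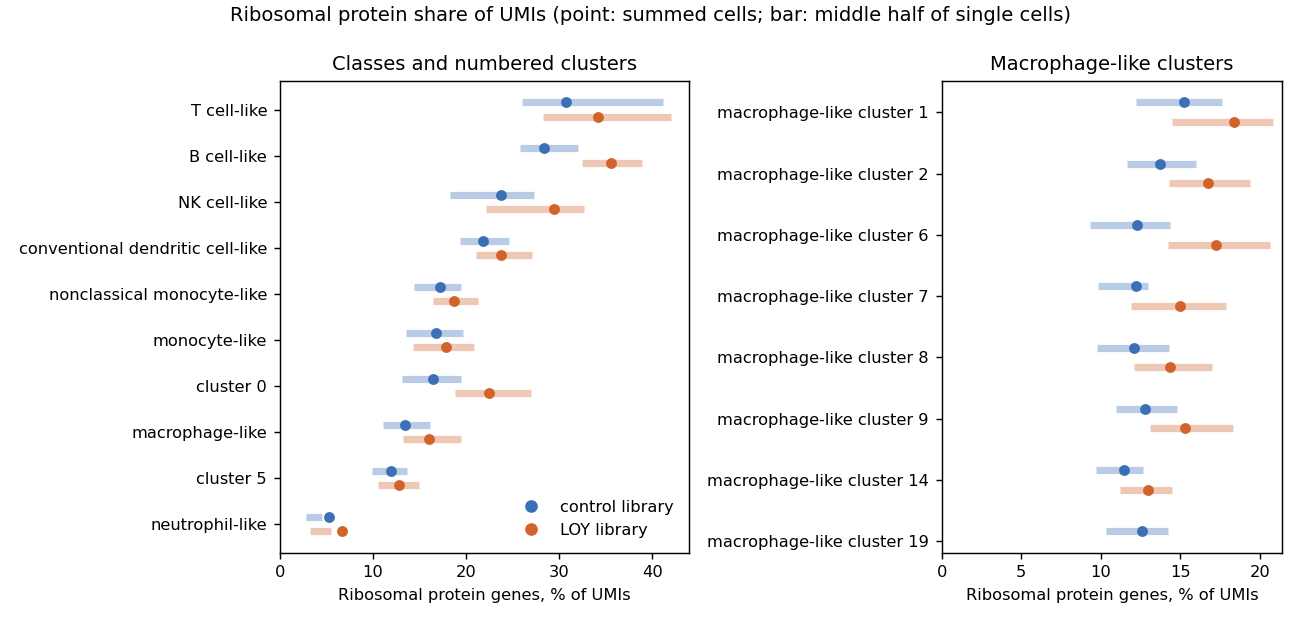
Ribosomal protein genes as a percentage of UMIs (horizontal axis) in each class or numbered cluster (left) and in the clusters of macrophage-like cells (right), for the control library (blue) and the LOY library (orange). Points are sums over all cells, bars span the 25th to the 75th percentile of single cells, groups under 20 cells are not drawn, and the LOY point lies to the right of the control point in every group with both.

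Gene by gene, each class was set against the macrophage-like cells of the same library, and members over 1.5-fold higher or lower were counted beside the share of all measured genes past the same fold (the background). In T cell-like cells 77 of 83 were higher and 2 lower in the control (background 15.8% and 21.3%), and 74 of 83 and 2 in the LOY library (21.9% and 28.3%). In B cell-like cells 72 of 83 were higher and 1 lower in the control (background 20.3% and 26.3%), and 72 of 83 and 1 in the LOY library (21.0% and 36.6%). In NK cell-like cells 63 of 83 were higher and 0 lower in the control (background 23.7% and 21.0%), and 67 of 83 and 1 in the LOY library (26.2% and 32.9%). Most members were thus higher in each lymphoid class, in both libraries. In conventional dendritic cell-like cells 47 of 83 were higher and 0 lower in the control (background 15.0% and 21.7%), and 28 of 83 and 0 in the LOY library (13.5% and 28.8%). In nonclassical monocyte-like cells 11 of 84 were higher and 0 lower in the control (background 18.2% and 18.8%), and 8 of 84 and 1 in the LOY library (22.1% and 26.7%). In monocyte-like cells 8 of 83 were higher and 0 lower in the control (background 11.8% and 14.3%), and 1 of 83 and 0 in the LOY library (6.45% and 12.1%). For these monocytic classes the share of members over 1.5-fold higher was below the background, although the median log2 ratio of members was above that of all genes. The medians were 0.33 and 0.22 in nonclassical monocyte-like cells (all genes 0.045 and -0.040). In monocyte-like cells they were 0.26 and 0.16 (all genes -0.012 and -0.072). In cluster 0 2 of 83 were higher and 0 lower in the control (background 6.66% and 8.20%), and 21 of 83 and 0 in the LOY library (10.3% and 20.4%). In cluster 5 0 of 83 were higher and 0 lower in the control (background 2.78% and 3.59%), and 0 of 83 and 1 in the LOY library (5.98% and 5.94%). In neutrophil-like cells 0 of 83 were higher and 79 lower in the control (background 22.0% and 40.6%), and 1 of 84 and 79 in the LOY library (23.0% and 45.3%). Neutrophil-like cells were the class in which nearly all members were lower.

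Neutrophil-like cells had 4 ribosomal protein messages near the level of macrophage-like cells while the others measured in the control library were all over 1.5-fold lower. The 4 were Rps9, Rps27, Rps27a and Rps27rt in both libraries, and in the LOY library Rpl3l (5 UMIs) was higher. Rps27rt stood at only 30.2 CPM in control neutrophil-like cells. At that level the 10 CPM added before log2 draws a ratio towards 0, and its reads may in part be those of Rps27. Rps9, a small subunit protein at the entrance of the message channel (ENSMUSG00000006333, mm10 chromosome 7, 3703993 to 3706897, plus strand), stood at 3578 and 4148 CPM in neutrophil-like cells and at 3219.8 and 3470.5 CPM in macrophage-like cells. It thus held 6.79% and 6.24% of all ribosomal protein UMIs of neutrophil-like cells, against 1.72% to 3.11% in the other classes and numbered clusters of the control and 1.62% to 2.97% in those of the LOY library. Rps27a, which is made as a fusion with ubiquitin, held 3.88% and 3.33% there and 1.81% and 1.94% in macrophage-like cells. Rps27, a zinc-finger protein of the small subunit, held 1.69% and 1.66% and 0.707% and 0.644%. The opposite was seen for Rpl12, at the base of the stalk, which held 0.574% and 0.863% of the ribosomal protein UMIs in neutrophil-like cells, 1.37% and 1.51% in macrophage-like cells and 2.14% and 2.23% in T cell-like cells. Its level ran from 302 and 574 CPM in neutrophil-like cells to 6558 and 7628 CPM in T cell-like cells. Rps20, of the small subunit head, held 0.778% and 1.14% in neutrophil-like and 2.02% and 2.96% in B cell-like cells.

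When neutrophil-like cells were split into 4 groups of like size by UMIs per cell, group 4, the deepest, differed from the rest. It had 7.11% and 9.53% ribosomal protein UMIs and 1.62% and 1.54% mitochondrial UMIs, whereas groups 1 to 3 had 3.32% to 4.34% ribosomal protein UMIs in the control and 4.05% to 4.55% in the LOY library. Without group 4 (223 control and 94 LOY cells), Rps9 held 10.2% (9.75% to 10.7%) and 9.89% (8.85% to 11.0%) of the ribosomal protein UMIs. Rps27a then held 4.92% (4.59% to 5.26%) and 4.06% (3.39% to 4.83%), and Rps27 2.35% (2.12% to 2.59%) and 2.33% (1.82% to 2.94%). Rpl12 came to 0.205% (0.141% to 0.288%) and 0.167% (0.0541% to 0.388%), the latter from 5 UMIs. The departures of these genes from the other classes were thus larger without the deepest neutrophil-like cells than with them.

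**Figure D2:**
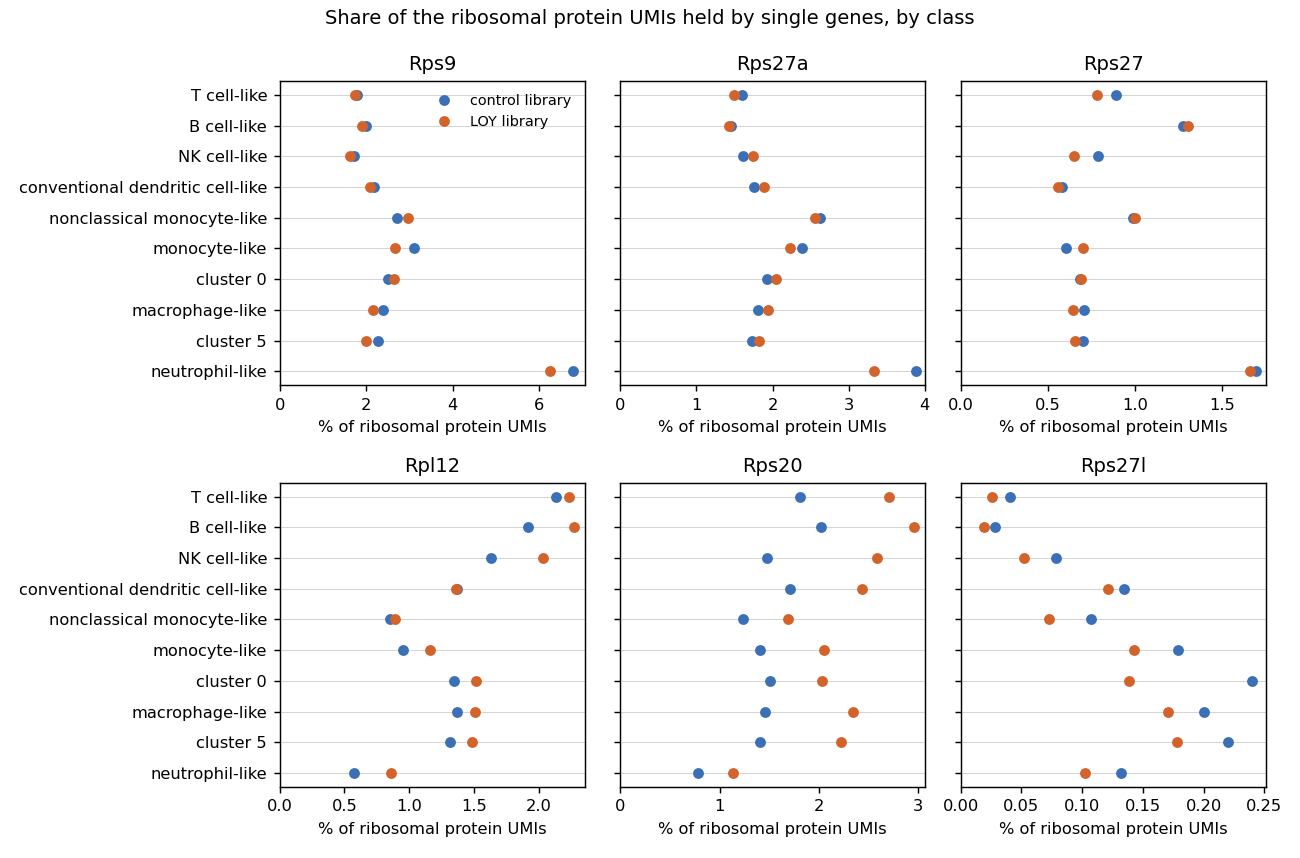
Share of all ribosomal protein UMIs held by 6 genes (horizontal axes, each from 0) in each class or numbered cluster, for the control library (blue) and the LOY library (orange). Rps9, Rps27a and Rps27 are highest and Rpl12 and Rps20 lowest in neutrophil-like cells in both libraries, and Rps27l is lowest in B cell-like cells.

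Paralogues differed in how their levels ran over the classes. Rps27l, a p53-inducible paralogue of Rps27, held 0.0281% and 0.0195% of the ribosomal protein UMIs in B cell-like cells and 0.0409% and 0.0256% in T cell-like cells, against 0.200% and 0.171% in macrophage-like cells, 0.240% and 0.138% in cluster 0 and 0.220% and 0.178% in cluster 5. Its level was 79.8 and 69.3 CPM in B cell-like, 69.7 and 68.0 CPM in neutrophil-like and 270.0 and 275 CPM in macrophage-like cells. Rps27 itself was higher in B cell-like than in macrophage-like cells, with 3621 and 4632 CPM in B cell-like and 953 and 1034 CPM in macrophage-like cells. Rps27rt, named as a retrogene of Rps27, followed Rps27, with 122 and 203 CPM and 34.9 and 43.7 CPM, and its reads may in part be those of Rps27. Rpl7l1, a nucleolar factor related to Rpl7, was lowest in share in T cell-like cells at 0.0193% and 0.0115%, against 0.0708% and 0.0662% in macrophage-like cells. Rpl22l1, the paralogue of Rpl22, stood at 622 and 677 CPM in T cell-like cells and 211 and 174 CPM in macrophage-like cells, and Rpl22, which T cell development is known to need, at 1519 and 1778 CPM and 787 and 871 CPM. Rpl36al, the autosomal paralogue of the X-linked Rpl36a, held its highest share in monocyte-like cells (0.550% and 0.587%) and its lowest in B cell-like cells (0.221% and 0.253%).

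Among macrophage-like cells the share varied less than among classes. Cluster 1, led by H2-Eb1 and other MHC class II genes, had the highest share, 15.2% and 18.4% over 1189 and 276 cells. Cluster 2, led by Egr1 and Ccl4, had 13.7% and 16.7% (1171 and 71 cells). The cycling cluster 9, led by Hist1h1b and Mki67, had 12.8% and 15.3%, and the interferon cluster 8, led by Ifit2, 12.1% and 14.4%. Cluster 7, led by Lmna, had 12.2% and 14.9%. Cluster 6, led by Spp1 and Tmem119, had 12.3% and 17.3% and was unevenly sampled, with 51 control and 1720 LOY cells. The lowest share of the macrophage-like clusters with at least 20 cells in both libraries was that of cluster 14, led by Cxcl13 and Vsig4, with 11.4% and 12.95% (245 and 30 cells). Cycling cells, which were the deepest at medians of 9561 and 4786 UMIs, were thus near the middle of this order. The order leaves out the Lyve1-led cluster 5 (1248 and 403 cells), which had 11.9% and 12.77%. Its macrophage markers summed to 71923 and 80286 CPM, against 59615 and 79675 CPM in macrophage-like cells.

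In each class with at least 100 cells per library, the LOY cells had a larger share of ribosomal protein UMIs than the control cells. In macrophage-like cells the ratio of the shares, LOY over control, was 1.19-fold (1.190 to 1.194). The ratio was 1.25-fold (1.24 to 1.26) in B cell-like cells, 1.26-fold (1.23 to 1.29) in neutrophil-like cells and 1.36-fold (1.36 to 1.37) in cluster 0. It was smaller in cluster 5, 1.07-fold (1.07 to 1.08), and in monocyte-like cells, 1.06-fold (1.05 to 1.06). Single cells overlapped: the 25th and 75th percentiles of macrophage-like cells were 11.0% and 16.1% for control cells and 13.2% and 19.5% for LOY cells. The log2 ratio of neutrophil-like cells moved with depth. It was 0.34 in all of them and 0.14 without the 25% of cells with most UMIs (223 control and 94 LOY cells). In cells of at least 1000 UMIs it was 0.97, from 294 control and only 33 LOY cells. That cut lies above the LOY median of 830 UMIs and below the control median of 2038, so it set deeper LOY cells against nearly all control cells.

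The macrophage-like class held different clusters in the 2 libraries, with clusters 1 and 2 making up most control cells and clusters 6 and 8 most LOY cells. In the 3 clusters with at least 100 cells per library the ratio was 1.21-fold (1.20 to 1.21) in cluster 1, 1.19-fold (1.18 to 1.19) in cluster 8 and 1.20-fold (1.19 to 1.21) in cluster 9. The clusters with fewer cells in 1 library spread more widely by the shares given above. Cluster 6, which held 1720 of the 3425 LOY cells, went from 12.3% to 17.3%, with 51 control cells behind the first value. The part of cluster makeup in the ratio of the class was not tested. LOY macrophage-like cells were shallower and had fewer mitochondrial UMIs, 3.37% and 2.05%. Without mitochondrial genes in the total the shares were 13.9% and 16.4%. Within each library the share was lowest in the deepest cells: in depth groups 1 to 4, each of 25% of the cells, it was 14.3%, 14.6%, 13.5% and 12.8% in the control and 17.2%, 17.7%, 16.4% and 14.8% in the LOY library. Every LOY group was thus above every control group, but some by little. Where median depths were close, LOY group 3 (3693 UMIs) stood against control group 1 (3368.5 UMIs), and LOY group 4 (5711 UMIs) against control groups 2 and 3 (4832 and 6418 UMIs). With cells thinned to 1000 UMIs and shallower cells left out, the log2 ratio was 0.27, against 0.25 unthinned. Random thinning does not change the share expected in a cell, so this value could not test the part of depth. It gives the remaining cells equal weight, and equal weight per cell without thinning also gave 0.27. The part of depth, cell handling and library preparation in the difference cannot be told apart from that of the genotype, since each genotype is 1 library.

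The larger share was not carried by all members alike. On the scale used for single genes, log2((LOY CPM + 10)/(control CPM + 10)), 20 of 83 measured members were over 1.5-fold higher in LOY macrophage-like cells and 5 were over 1.5-fold lower, where 7.02% and 7.85% of all 7825 measured genes were. In all, 59 members were above 0 and 24 below, from -2.03 to 1.26, with a median of 0.22 against -0.0030 for all genes. The share of higher members, 20 of 83, was above the background and that of lower members near it. Many of the counts lie close to the threshold, with Rps13 at 0.59, Rpl8 at 0.59 and Rps12 at 0.60 just over it and Rpsa at 0.53, Rpl34 at 0.51 and Rpl26 at 0.50 just under it.

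**Figure D3:**
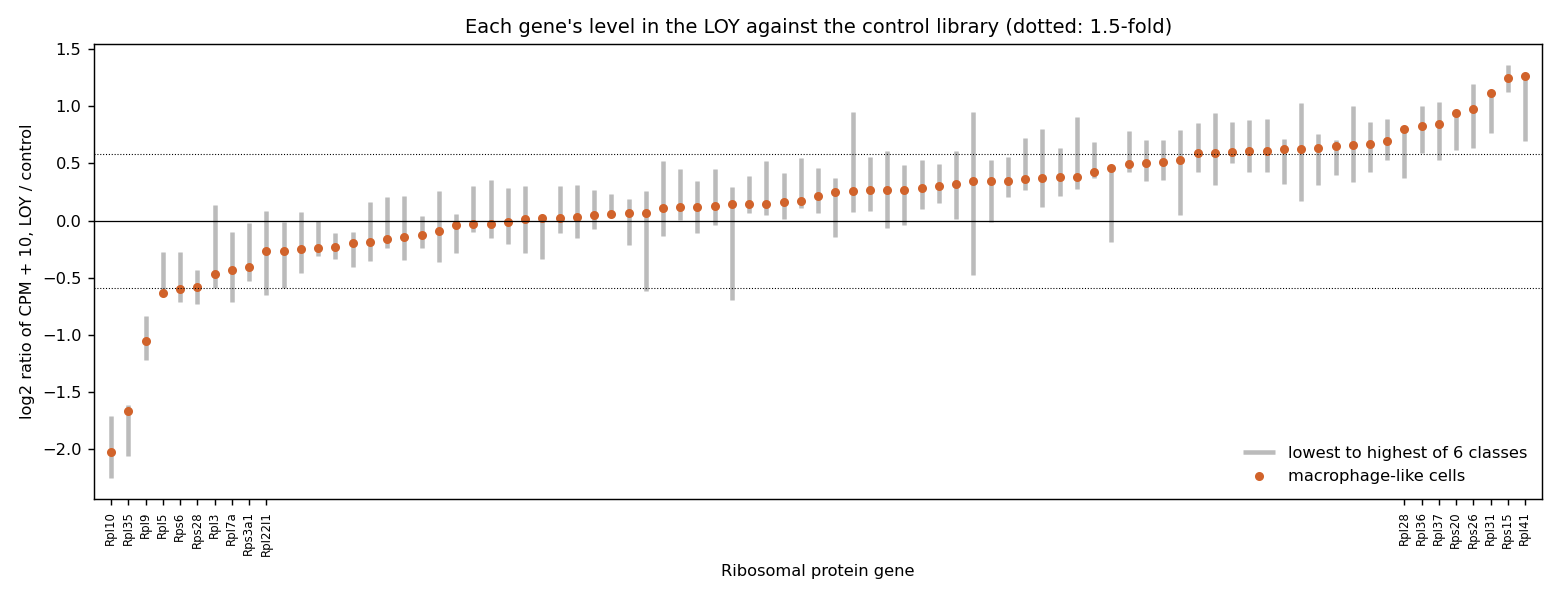
Ratio of each member's level in the LOY to that in the control library (vertical axis, log2 of CPM + 10) for the 83 members measured in macrophage-like cells (horizontal axis, ordered by that class, with the 10 lowest and 8 highest named). Points are macrophage-like cells, grey bars run from the lowest to the highest of 6 classes compared (macrophage-like, monocyte-like, neutrophil-like, B cell-like, clusters 0 and 5), dotted lines mark 1.5-fold, and Rpl10 and Rpl35 lie below the lower line in every class.

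The members that were lower in LOY cells were led by large subunit genes. Rpl10 (ENSMUSG00000008682, chromosome X, 74270812 to 74273135, plus strand), an X-linked gene whose protein joins the large subunit at the last step of its maturation, had 1795 and 433 CPM in macrophage-like cells, 0.241-fold (0.234 to 0.248). It had 2273 and 469 CPM in monocyte-like, 2129 and 596 CPM in B cell-like, 518 and 151 CPM in neutrophil-like cells, 1989.7 and 506 CPM in cluster 0 and 1586 and 397 CPM in cluster 5. The control level was thus above the LOY level in every class compared, with log2 ratios of -2.25 to -1.71. Rpl35 (ENSMUSG00000062997, chromosome 2, 39001580 to 39005624, minus strand), near the exit of the nascent chain tunnel, had 436 and 131 CPM in macrophage-like cells, 0.300-fold (0.285 to 0.317). It had 466 and 134 CPM in monocyte-like, 823 and 189.5 CPM in B cell-like, 146 and 30.2 CPM in neutrophil-like cells, 502 and 158 CPM in cluster 0 and 389.5 and 91.9 CPM in cluster 5, with log2 ratios of -2.06 to -1.61. Rpl9 (ENSMUSG00000047215, chromosome 5, 65388364 to 65391444, minus strand), also of the large subunit, had 2123 and 1019 CPM in macrophage-like cells, 0.480-fold (0.470 to 0.489), and log2 ratios of -1.22 to -0.83 over the 6 classes. These 3 genes were the lowest members in macrophage-like cells.

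Rpl5, Rps6 and Rps28 came next. Rpl5, which together with Rpl11 and 5S ribosomal RNA can bind Mdm2, had 1201 and 769 CPM in macrophage-like cells, 0.641-fold (0.626 to 0.656). Its partner Rpl11 was on the other side, with 2201 and 2613 CPM. Rps6, the small subunit protein phosphorylated by S6 kinases, had 1345 and 884 CPM, 0.657-fold (0.643 to 0.672). Rps28, at the exit of the message channel, had 899 and 599 CPM, 0.666-fold (0.648 to 0.684), just short of 1.5-fold lower on the scale with the added 10 CPM. Over the 6 classes the log2 ratios ran from -0.64 to -0.28 for Rpl5, from -0.71 to -0.27 for Rps6 and from -0.73 to -0.43 for Rps28. Rpl3, Rpl7a, Rps3a1 and Rpl22l1 completed the 10 lowest, at -0.47, -0.43, -0.40 and -0.27 in macrophage-like cells.

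Higher members came from both subunits. Rpl41 (ENSMUSG00000093674, chromosome 10, 128548114 to 128549305, minus strand), the shortest ribosomal protein, which sits between the subunits, had 1058 and 2551 CPM in macrophage-like cells, 2.41-fold (2.37 to 2.45). It had 1656 and 2829 CPM in monocyte-like, 1782 and 3342 CPM in B cell-like, 699 and 1141 CPM in neutrophil-like cells, 1515 and 3226 CPM in cluster 0 and 958 and 1802 CPM in cluster 5. Rps15 (ENSMUSG00000063457, chromosome 10, 80292453 to 80294114, plus strand), in the head of the small subunit, had 1222 and 2912 CPM, 2.38-fold (2.35 to 2.42). It had 1290.5 and 2838 CPM in monocyte-like, 2073 and 5071 CPM in B cell-like, 471 and 1080.3 CPM in neutrophil-like cells, 1392 and 3601 CPM in cluster 0 and 1108 and 2437 CPM in cluster 5. Its log2 ratios, 1.13 to 1.36, spanned a narrower range over the classes than those of Rpl41, 0.70 to 1.26. Rpl31, at the rim of the exit tunnel, had 435 and 954 CPM, 2.19-fold (2.13 to 2.25), and Rps26, at the exit of the message channel, 791 and 1565 CPM, 1.98-fold (1.94 to 2.02). Rps20 had 1956 and 3758 CPM, Rpl37 1119 and 2016 CPM, Rpl36 781 and 1393 CPM and Rpl28 1488 and 2602 CPM. All of these 8 were above 0 in each of the 6 classes, whose comparisons rest on the same 2 libraries.

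**Figure D4:**
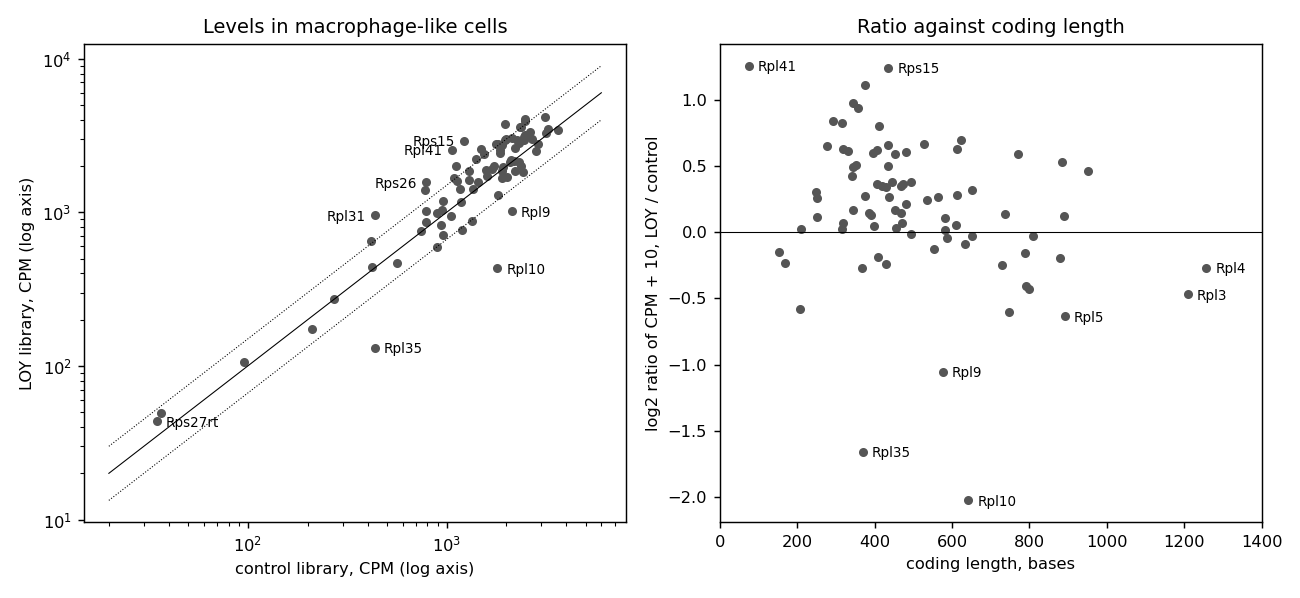
Members in macrophage-like cells. Left: level in the LOY (vertical) against the control library (horizontal), both in CPM on log axes, with the line of equality and dotted lines at 1.5-fold; Rpl10, Rpl35 and Rpl9 lie well below the line and Rps15, Rpl41, Rps26 and Rpl31 above it. Right: log2 ratio of CPM + 10 (LOY over control) against coding length in bases, where the longest members, Rpl3 and Rpl4, lie below 0.

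Counts in the other classes differed in size. Over 1.5-fold higher in LOY cells were 21 of 83 members in B cell-like cells (background 8.60%), 29 of 83 in cluster 0 (9.34%) and 25 of 84 in neutrophil-like cells (16.9%). There were 11 of 83 in monocyte-like cells (7.82%) and 8 of 83 in cluster 5 (5.47%). Lower were 3 members in B cell-like cells (background 23.7%), 3 in cluster 0 (18.2%), 6 in neutrophil-like cells (24.6%), 10 in monocyte-like cells (14.8%) and 7 in cluster 5 (8.41%). The medians of the members were 0.45 in cluster 0, 0.31 in neutrophil-like, 0.30 in B cell-like, 0.085 in cluster 5 and 0.052 in monocyte-like cells, while those of all genes lay between -0.16 and -0.016. In all 5 of these classes the share of higher members was above its background, least so in monocyte-like cells and cluster 5, and in B cell-like cells, neutrophil-like cells and cluster 0 the share of lower members was below its background. The backgrounds count genes from 10 CPM, whereas 60 of the 86 members reached 1000 CPM over all cells of both libraries. Counting error is larger at low levels, above all in LOY neutrophil-like and B cell-like cells (132365 and 216326 UMIs), and its part was not tested. Within single macrophage-like clusters 17 members were higher and 3 lower in cluster 1 (background 7.58% and 10.7%), 17 and 5 in cluster 8 (7.20% and 9.45%) and 17 and 3 in cluster 9 (6.42% and 10.7%).

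Other members among the 5 highest or 5 lowest of a class are given here with their levels. In neutrophil-like cells Rpl36al had 117 and 249 CPM, Rpl36 221 and 453 CPM and Rps19 489 and 989.7 CPM. The X-linked Rpl36a had 121 and 75.5 CPM there, so that Rpl36al and Rpl36a had log2 ratios of 1.03 and -0.61. Both rest on few counts, as LOY neutrophil-like cells held 132365 UMIs in all. Over the 6 classes compared Rpl36al was above 0 in 6, and Rpl36a was above 0 in 3 and below 0 in 3. In cluster 0, Rps19bp1 had 27.7 and 62.8 CPM and Rpl37 1240.3 and 2560.3 CPM. Cluster 5 had Rpl7a, of the large subunit, among its lowest with 839 and 509 CPM, and B cell-like cells had Rps20 among their highest with 5732 and 10526 CPM. In monocyte-like cells Rpl36 was next to Rps15, with 827 and 1495 CPM. Whether a gene's ratio differed between classes was not tested.

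Each member was also expressed as a share of all ribosomal protein UMIs of macrophage-like cells. This scale lowers log2 ratios by about the 0.25 of the summed share and sets the sum of the members equal in both libraries. On it 6 members were over 1.5-fold higher and 9 lower in the LOY library. Rpl10 went from 1.33% to 0.270% of the ribosomal protein UMIs, Rpl35 from 0.323% to 0.0815% and Rpl9 from 1.58% to 0.635%. Rps15 went from 0.907% to 1.81% and Rpl41 from 0.786% to 1.59%. These 5 genes were among the extremes of the first scale, so a shift of 0.25 could not turn their direction, and their agreement is no check. Members only slightly higher on the first scale turn lower on this one.

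Grouped by place in the ribosome, the large and the small subunit had like ratios of their summed levels, both higher in the LOY library. The summed ratio in macrophage-like cells was 1.18-fold (1.18 to 1.19) for the large and 1.18-fold (1.18 to 1.19) for the small subunit. Of the large subunit 13 of 46 measured genes were over 1.5-fold higher and 4 lower, and of the small subunit 7 of 33 and 1. The P stalk, the flexible arm that recruits elongation factors, was higher as a group, at 1.37-fold (1.36 to 1.38), with 0 of 3 genes over 1.5-fold. Rplp0 had 1858 and 2563 CPM, Rplp1 3110.5 and 4179 CPM and Rplp2 1123 and 1591 CPM in macrophage-like cells. In monocyte-like cells Rplp0 was on the other side, with 4176 and 3670.4 CPM, beside 2236 and 3235 CPM for Rplp1 and 1349.5 and 1821 CPM for Rplp2.

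The 4 members on chromosome X differed from each other. Next to Rpl10, Rps4x had 2815 and 2525 CPM in macrophage-like cells, Rpl39 1053 and 951 CPM and Rpl36a 420.3 and 442 CPM, with log2 ratios of -0.16, -0.15 and 0.070. Rps4x was also at 5029.7 and 5538 CPM in B cell-like cells and 2927 and 2569 CPM in monocyte-like cells. The summed level of the 4 genes, 0.715-fold, includes Rpl10. Of the paralogues, Rpl36al had 418 and 653 CPM in macrophage-like cells, 1.56-fold (1.51 to 1.61), while Rps27l (270.0 and 275 CPM) and Rpl7l1 (95.3 and 106 CPM) were close between libraries. Rps19bp1 had 36.7 and 49.4 CPM.

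Members with known roles outside the ribosome had no common direction. Of 12, 1 was over 1.5-fold higher, Rps19, a gene of inherited red cell aplasia, with 1763 and 2788 CPM, and 3 were lower, Rpl10, Rpl5 and Rps6. Rpsa, also a laminin receptor, had 1904 and 2756 CPM, Rps27a 2441 and 3112 CPM, Rpl13a, known from interferon-driven silencing of messages, 2097 and 2186 CPM, and Rps3, which also takes part in DNA repair, 2021 and 1702 CPM. Long members had lower ratios than short ones by their medians. The 11 long members listed had a median log2 ratio of -0.19 in macrophage-like cells and the 11 short ones 0.12, with 0 long members over 1.5-fold higher and 2 lower, and 4 short members higher and 1 lower. Across the 83 measured members, Pearson's r between coding length and log2 ratio was -0.29 and Spearman's rho -0.32. The points are genes of the same 2 libraries and are no independent replicates. Among short genes Rpl41 stood at 1.26 and Rps28 at -0.58, and the part of length was not tested.

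Other ribosomal proteins, whose symbols lie outside the naming pattern, were on the higher side in LOY macrophage-like cells. Fau, a fusion of a ubiquitin-like protein with a small subunit protein, had 3829 and 5939 CPM. Rack1, a signalling scaffold on the small subunit, had 1558 and 1739 CPM. Among elongation factors and other genes with TOP messages, 0 of 11 measured genes were over 1.5-fold higher and 3 lower, with a median log2 ratio of -0.064. Eef1a1, which brings aminoacyl transfer RNA to the ribosome, had 3876 and 2527 CPM, and Tpt1, a growth-linked protein of a classical TOP message, 7117 and 5105 CPM. Eef2, which moves the ribosome along the message, had 558 and 785 CPM. The summed level of this list was 0.765-fold (0.761 to 0.770), LOY over control. In initiation factors, 3 of 28 measured genes were over 1.5-fold higher and 2 lower, with a median log2 ratio of 0.080, and Eif1, which guards start codon choice, was lowest with 1298 and 572 CPM and Eif3k highest with 311 and 541 CPM.

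Genes that build ribosomes were centred near 0. In ribosome assembly factors 2 of 28 measured genes were over 1.5-fold higher and 3 lower, with a median log2 ratio of -0.0040, with Nhp2 highest at 59.5 and 108 CPM and Gar1 lowest at 24.4 and 9.69 CPM, which are both proteins of the same class of nucleolar particle. In RNA polymerase I and its factors 1 of 15 measured genes were over 1.5-fold higher and 2 lower, with a median log2 ratio of -0.067. In host genes of small nucleolar RNAs with TOP messages 0 of 9 measured genes were over 1.5-fold higher and 1 lower, with a median log2 ratio of -0.19, and Gas5 had 210.3 and 188 CPM. Regulators of ribosomal protein messages had 0 of 17 genes over 1.5-fold higher and 0 lower, Larp1 with 54.3 and 46.1 CPM and Myc with 10.5 and 3.92 CPM. Myc lay near the 10 CPM minimum, where the 10 CPM added before log2 draws a ratio towards 0, so this count does not show it unchanged. Surveillance and rescue genes had 0 and 0 of 11, Mdm2 with 41.2 and 42.5 CPM. Mitochondrial ribosomal proteins, which serve the separate ribosome of that organelle, were higher as a list: 11 of 77 measured genes were over 1.5-fold higher and 3 lower, with a median log2 ratio of 0.23, and their summed level was 1.28-fold (1.27 to 1.30). Mrpl58 was highest with 46.4 and 97.0 CPM and Mrpl27 lowest with 74.5 and 39.9 CPM. The backgrounds of all genes in that class were those given above, 7.02% higher and 7.85% lower.

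Ribosomal protein genes have many near-identical pseudogenes, and reads that match several places can be left out or placed on another copy. Of the 5 pseudogene symbols among the features, Rpl10-ps3 had 65.3 and 75.1 CPM over all kept cells and Rpl9-ps6 57.2 and 42.9 CPM. Rpl10 and Rpl9 themselves had 1807 and 442 CPM and 2376 and 1084 CPM there. The Rpl10-ps3 level was slightly higher in the LOY library, in which Rpl10 was lower. Reads left out of the counts do not show in these levels. Levels of members with such copies are uncertain to the extent that reads were shared. In GENCODE M21, Rpl35 overlaps Arpc5l and Wdr38 on the opposite strand, Rpl12 overlaps Lrsam1, Rpl31 overlaps Tbc1d8 and Rps28 overlaps Kank3, whereas Rpl10, Rpl9, Rps15, Rpl41 and Rps9 overlapped no other gene among the features. Whether read placement, message ends or preparation differed between the libraries was not tested.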

How the data were processed

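Leukocytes of pooled left ventricles were profiled by droplet single-cell sequencing of message 3' ends, 1 library per group. The deposited matrices hold raw UMI counts per gene and cell barcode. Cell Ranger 5.0.0 and build mm10 are named in the submitters' processing notes. The members, pathway lists and named-gene rule were chosen with earlier results of these data known.

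Barcodes were kept with at least 500 UMIs, 200 genes and at most 10% mitochondrial UMIs. Scrublet's automatic threshold marked 84 control barcodes (1.15%) as doublets. It marked 0 in the LOY library, where the 240 barcodes (4.38%) with the highest scores were left out instead. Cells of both libraries were clustered together (scanpy 1.11.5, 2000 variable genes, 30 components, 15 neighbours, Leiden resolution 1). Ribosomal, mitochondrial, Y-linked, haemoglobin, immunoglobulin and T cell receptor genes were left out of the variable genes. A cluster was named from at least 3 detected markers. Counts were summed per class and library and given as CPM. A gene was measured at 10 CPM in either library, and 10 CPM was added before log2. Shares have exact binomial and ratios exact conditional 95% intervals, computed with scipy 1.17.1, for counting error only. The fold and interval code was tested on simulated counts. Classes were compared between libraries from 100 cells in each and given as levels from 20 cells. Genes were named as the extremes of the ratios and of the class contrasts, the most abundant members, and the paralogue, X-linked, P stalk, extraribosomal and length lists. The alternatives were other cell filters, clusterings, totals, added constants and gene minimums, thinning, and equal weight per cell. Gene positions come from GENCODE M21 on GRCm38 and promoter sequences from RefSeq. Some genes that the naming rule picks are not reported here.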

Additional observations from a re-analysis of the deposited data

How the results depend on the processing

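The log2 ratio of the ribosomal protein share, LOY over control, stayed above 0 in each of the 6 classes under every alternative that gave a value, between 0.23 and 0.34 in macrophage-like cells over 11 alternatives. In cells of at least 1000 UMIs it was 0.27 in macrophage-like, 0.12 in monocyte-like, 0.97 in neutrophil-like and 0.30 in B cell-like cells. The values of neutrophil-like and B cell-like cells there rest on only 33 and 62 LOY cells. At most 5% mitochondrial UMIs gave 0.33 in macrophage-like and 0.13 in monocyte-like cells. With doublets kept the values were 0.31, 0.072, 0.56 and 0.27 in macrophage-like, monocyte-like, neutrophil-like and B cell-like cells, and with each library clustered on its own 0.34, 0.047, 0.73 and 0.24. Resolution 0.5 gave 0.27 in macrophage-like cells. Thinning to 1000 UMIs, which leaves out shallower cells, gave 0.27 in macrophage-like, 0.80 in neutrophil-like (30 LOY cells) and 0.29 in B cell-like cells (62 LOY cells). Equal weight per cell gave 0.27, 0.25 and 0.31 in these classes. Without mitochondrial genes in the total the values were 0.23 in macrophage-like, 0.067 in monocyte-like, 0.30 in B cell-like cells, 0.42 in cluster 0 and 0.085 in cluster 5. The next alternatives were chosen after seeing the data. Without the 3 members lowest in macrophage-like cells the values were 0.29, 0.11, 0.35, 0.48 and 0.13 in macrophage-like, monocyte-like, B cell-like cells, cluster 0 and cluster 5. These members were picked for their low ratios, so leaving them out could only raise the value in macrophage-like cells. This alternative is counted among the 11 but is no check of the direction. Without the 3 lowest and the 3 highest they were 0.26, 0.090 and 0.46 in macrophage-like cells, monocyte-like cells and cluster 0. Without the 25% of neutrophil-like cells with most UMIs the value there was 0.14. The cause of the other moves was not tested.

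The counts of members over 1.5-fold in macrophage-like cells moved by over 1.5 times under 2 alternatives. As shares of all ribosomal protein UMIs, a scale that sets their sum equal in both libraries and so takes the summed shift away, 6 were higher and 9 lower. With separate clustering 3 were lower. At most 5% mitochondrial UMIs left 1 elongation or other TOP gene lower. Of the named classes found, all but neutrophil-like cells were above macrophage-like cells in both libraries under each of the 8 alternatives run for it. These classes numbered 6 with the settings used and 4 to 6 under the alternatives, where some classes were not found. The order of T cell-like and B cell-like cells turned in the control library at most 5% mitochondrial UMIs and in the LOY library with doublets kept and with thinning. Monocyte-like cells were not found at resolution 0.5, and clusters 0 and 5 could not be matched where cells were clustered anew. No paired analysis was possible because each group is 1 library.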
